A study of Mus musculus with 5 samples.

Results

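Six-family genes encode homeodomain transcription factors with a second conserved domain that contacts partner proteins, and 5 of them were examined here: Six2, Six3, Six4, Six5 and Six6. They were taken by symbol from the gene list of a mouse ocular-area single-cell data set, and are 5 of its 27998 genes. Other genes of the family were not analysed here. The labels give 5 single embryos of the strain C57BL/6J, all wild type, with 12, 16, 20, 24 and 26 somites, so that each stage is 1 sample with no replicate. The pair of optic areas was cut out and digested with trypsin, and droplet 3′ libraries were made from about 2000 cells a sample. The deposited matrix pools the 5 libraries, and a barcode suffix from 1 to 5 separates them without naming a stage. Libraries are therefore numbered by that suffix and are not assigned to a stage. No comparison between stages was made.

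Six-family proteins bind DNA through the homeodomain and gain much of their activity from partners that do not bind DNA themselves. Six2, Six4 and Six5 act with the Eya coactivators, whereas Six3 and Six6, which belong to the same subfamily, also recruit Groucho corepressors of the Tle family. Six3 is required for the anterior forebrain, retina and lens, Six6 is known for its role in the retina, hypothalamus and pituitary, Six2 keeps mesenchymal progenitors undifferentiated, best known in the kidney, Six4 marks placodes and muscle precursors, and Six5 lies beside Dmpk, the gene of the myotonic dystrophy repeat.

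In the mouse build GRCm38 with the GENCODE vM21 annotation, 4 of the 5 genes lie in pairs. Six3 (ENSMUSG00000038805) is at chr17:85613608-85629302 on the plus strand, and Six2 (ENSMUSG00000024134) at chr17:85684277-85688274 on the minus strand, with 54974 bases and 0 annotated genes between them. Six6 (ENSMUSG00000021099) is at chr12:72939892-72944899 on the plus strand, and Six4 (ENSMUSG00000034460) at chr12:73099609-73113456 on the minus strand, 154709 bases apart with 3 genes between them, 1 of them protein-coding. Six5 (ENSMUSG00000040841) is at chr7:19094594-19098549 on the plus strand, 772 bases from Dmpk. Six3 overlaps the antisense gene Six3os1 and Six6 the antisense gene 4930447C04Rik. Whether reads were counted by strand is not given in the sources used here, so reads of these partners cannot be told apart from those of Six3 and Six6.

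The promoters of all 5 members were found in the RefSeq table (GRCm38.p6). The 250 bases before each start of that table were read, which gave 6 windows, with 2 for Six4. Six3 and Six6, the pair with the most similar RNA pattern below, share an 11-base run on the same strand, which 11 of 32851 promoter windows (0.0335%) hold. It lies 153 to 143 bases before the start of Six3 and 71 to 61 bases before that of Six6, at chr17:85620672-85620701 and chr12:72939802-72939831, both on the plus strand. The run is in capitals in these 30-base stretches.

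Six3: ttctcagtaTTGATTGGCAGggctgacagt

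Six6: gtcgcagccTTGATTGGCAGagcagcctag

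Six2 and Six6, which were highest in different cell classes, share a run of 12 bases, which is also held by 11 of the 32851 windows (0.0335%). It lies 155 to 144 bases before the start of Six2, at chr17:85688389-85688418 on the minus strand, and 37 to 26 bases before that of Six6, at chr12:72939836-72939865 on the plus strand. These longest shared runs were picked after the sequences had been seen, and a shared run is a description of the letters.

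Six2: actgacagcGTCTCCATGGCGaataatttg

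Six6: tgacaggggGTCTCCATGGCGcccgcgtct

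The 250 bases before the start of Six3, at chr17:85620584-85620833 on the plus strand, are printed whole because Six3 was detected in every neuroepithelial and ectodermal sub-cluster described below, with the same run in capitals. The start used is that of the RefSeq table, so this window lies inside the wider GENCODE interval of Six3 given above. It overlaps an annotated exon of Gm28528. The window has 48.8% G and C and holds the letters CCAAT 3 times, counting both strands.

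Six3: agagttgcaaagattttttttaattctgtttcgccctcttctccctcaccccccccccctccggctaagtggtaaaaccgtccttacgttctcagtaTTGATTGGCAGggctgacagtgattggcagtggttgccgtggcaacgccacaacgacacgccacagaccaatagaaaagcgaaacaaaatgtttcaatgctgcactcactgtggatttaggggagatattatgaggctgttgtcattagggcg

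On either strand, CCAAT was present in 33.8% of all windows of this length and in those of Six2, Six3, Six6 and 1 of the 2 windows of Six4. TATAAA was present in 12.4% of all windows and in none of the 6 windows of the members.

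The matrix held 8194 barcodes and 257637891 UMIs, the counts of distinct RNA molecules, with 1307 to 1996 barcodes per library and a median of 20713 UMIs per barcode in library 5 to 30922 in library 1. Of the barcode sequences, 40 occurred in more than 1 library, on 80 barcodes, and leaving these out changed no count of members given below. After filtering, 8106 cells were clustered without the members and named from marker lists. The optic vesicle-like class held 1444 cells (17.8%), with Rax at 190.3 counts per 1000000 UMIs (CPM) and Lhx2 at 271 CPM. The other classes used were other forebrain-like (1061 cells), ventral hypothalamus-like (644, Nkx2-1 at 149 CPM), surface ectoderm-like (353, Epcam at 371 CPM), lens placode-like (34), cranial neural crest mesenchyme-like (1564, Twist1 at 95.9 CPM), migratory neural crest-like (191), head mesoderm-like (313, Tbx1 at 22.5 CPM, which endothelium-like cells also carried at 34.3 CPM), endothelium-like (388), erythroid-like (253) and neuron-like cells (37). Of the remaining cells, 775 were depleted of nuclear RNA, 97 had mixed markers and 903 stayed unnamed.

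Six3 and Six6 were abundant in neuroepithelium, surface ectoderm and some neuron-like cells, but Six6 was much lower in other forebrain-like cells. Both were near the background in crest mesenchyme, head mesoderm, endothelium and blood when the libraries were pooled. Six2 was a gene of the mesenchyme, Six4 was high in surface ectoderm and mesenchyme alike, and Six5 was under 20 CPM in every class. Levels are UMIs of the gene in CPM of the class, with exact 95% Poisson intervals. These, and the exact conditional intervals of ratios and the Clopper-Pearson intervals of shares, cover counting error only and not the variation between embryos. Levels are not compared between genes, because a 3′ count depends on the gene's own end.

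**Figure D1:**
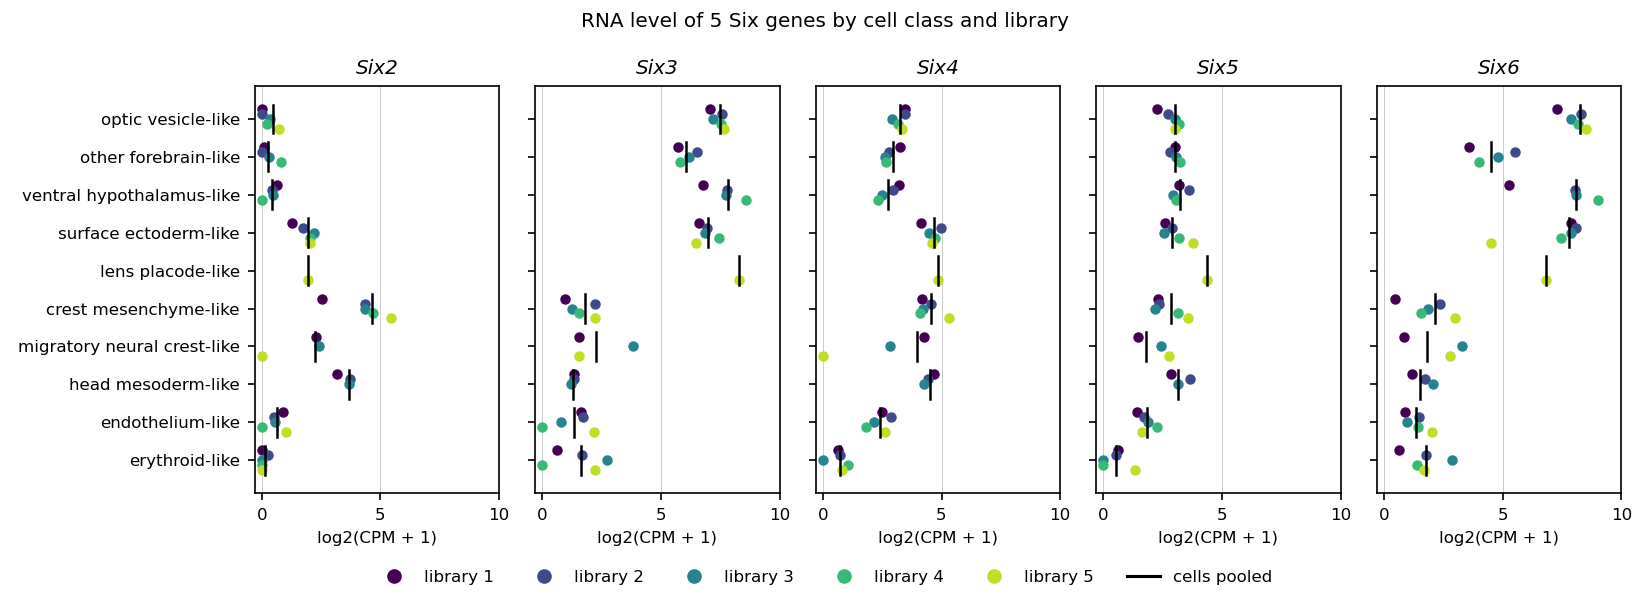
RNA level of the 5 Six-family genes (panels) by cell class (rows), as log2(CPM + 1); points are libraries with at least 20 cells of the class and black lines are the cells of all libraries pooled. Six3 points lie far to the right in the 5 neuroepithelial and ectodermal rows. Most Six6 points of these rows do too, but those of other forebrain-like cells lie at 10.8 to 45.2 CPM. Library 1 of the ventral hypothalamus-like row (37.2 CPM) and library 5 of the surface ectoderm-like row (22.0 CPM) are also lower. Six2 points lie furthest right in the crest mesenchyme and head mesoderm rows, and Six5 points stay below 20 CPM in every row.

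Six3, which patterns the anterior forebrain and eye field, stood at 181 CPM (177 to 185) in optic vesicle-like cells, with 133, 192, 147, 182 and 202 CPM in libraries 1 to 5. In other forebrain-like cells it stood at 65.1 CPM (62.4 to 68.0), with 51.5, 90.7, 70.8 and 55.5 CPM in libraries 1 to 4, and library 5 had too few of these cells (15) for a value. Every optic vesicle-like value lay above every forebrain-like one. The pooled ratio was 2.77 (2.65 to 2.91), and Six3 was higher in the optic vesicle-like cells of 4 of 4 libraries. The pooled optic vesicle-like level includes the 686 cells of library 5, at 202 CPM, so the pooled ratio mixes class with library.

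Six6 followed the same order with a wider gap between these classes. It stood at 304 CPM (299 to 309) in optic vesicle-like cells, with 155, 315, 238, 288 and 365 CPM in libraries 1 to 5. In other forebrain-like cells it stood at 22.1 CPM (20.5 to 23.8), with 10.8, 45.2, 26.7 and 15 CPM in libraries 1 to 4. The 2 sets of libraries did not overlap, and library 1 had the lowest Six6 in both classes. The pooled ratio was 13.8 (12.8 to 14.8), with Six6 higher in optic vesicle-like cells in 4 of 4 libraries. This ratio also mixes class with library, because library 5, at 365 CPM, gave optic vesicle-like cells but too few forebrain-like ones. The pooled ratio fell to 9.01 with called doublets kept and to 8.49 with the depleted and mixed clusters counted into the classes.

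The libraries are assigned to no stage and were not treated as replicates, so no test was run over them, and a rule of size that asks for the same direction within libraries was used instead. A gene passed it with a ratio of at least 2 in either direction, an interval that left out 1, at least 5 CPM in the higher class, at least 50 UMIs over both classes, and the same direction in every library with at least 20 cells of each class. Between optic vesicle-like and other forebrain-like cells 12187 genes could be tested and 224 passed, or 1.84%. Of the members, Six3 and Six6 passed, both higher in optic vesicle-like cells. Six4 had a ratio of 1.26 (1.06 to 1.49) and Six5 one of 0.990 (0.836 to 1.17), and Six2 had too few UMIs for the rule. These pooled ratios include library 5 in the same way.

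Ventral hypothalamus-like cells, the basal forebrain that expresses Nkx2-1, held both genes at levels of the same order as the optic vesicle-like cells. Six3 stood there at 225 CPM (218 to 232), with 107, 220.3, 214 and 387 CPM in libraries 1 to 4. Six6 stood at 274 CPM (266 to 281), with 37.2, 265, 272 and 518 CPM. Library 1 was the lowest and library 4 the highest for both genes, and for both the range overlapped that of the optic vesicle-like cells.

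Surface ectoderm-like cells, the epithelium from which the lens, nasal and pituitary placodes arise, also held both genes. Six3 stood at 126 CPM (119.5 to 133), with 94.8, 121, 115, 174 and 88.0 CPM in libraries 1 to 5. Six6 stood at 220.1 CPM (212 to 229), with 235, 271, 235, 174 and 22.0 CPM. Library 5 was far below the other 4 for Six6 and the lowest for Six3. Of its 31 surface ectoderm-like cells, 23 were in a sub-cluster led by Trp63 and Wnt4, and whether that makeup sets the level was not tested.

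Between optic vesicle-like and surface ectoderm-like cells 927 of 12055 genes passed the size rule (7.69%), among them 1 member, Six4. Six3 was 1.43-fold higher in optic vesicle-like cells (1.36 to 1.52), in 5 of 5 libraries, and Six6 1.38-fold higher (1.33 to 1.44), in 4 of 5 libraries, with library 1 in the opposite direction. Both ratios were under the fold asked for. Six2 was 7.58-fold lower (4.13 to 14.3), in 5 of 5 libraries, but reached 5 CPM in neither class, and Six5 had a ratio of 1.10 (0.851 to 1.43).

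The 34 lens placode-like cells, all from library 5, had Six3 at 313 CPM (273 to 357), the highest value of any class, and Six6 at 114 CPM (90.3 to 141). They carried the lens gene Pitx3 at 70.2 CPM and Epcam at 362 CPM, but Foxe3, a defining lens placode gene, had 0 UMIs in these cells. They also carried the retinal genes Rax at 46.3 CPM and Lhx2 at 37.9 CPM, against 2.8 and 6.2 CPM in surface ectoderm-like cells. The part of these transcripts in the Six3 and Six6 values was not tested.

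In crest mesenchyme, head mesoderm and endothelium, each pooled over libraries, both genes were close to the level in erythroid-like cells. These are blood cells that should lack both genes and that give the level of free RNA. Erythroid-like cells had Six3 at 2.11 CPM (1.34 to 3.17) and Six6 at 2.39 CPM (1.56 to 3.5). In crest mesenchyme-like cells Six3 stood at 2.46 CPM (2.02 to 2.97) and Six6 at 3.49 CPM (2.96 to 4.10), with intervals that overlapped those of the erythroid-like cells. In head mesoderm-like cells the levels were 1.48 CPM for Six3 and 1.88 CPM for Six6, and in endothelium-like cells 1.55 CPM for either gene. Migratory neural crest-like cells had Six3 at 3.85 CPM (2.52 to 5.65) and Six6 at 2.52 CPM (1.47 to 4.04), but the 30 such cells of library 3 reached 13.1 and 8.75 CPM, above the highest erythroid-like library (5.57 and 6.36 CPM).

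Other exceptions were the neuron-like cells described below and a cluster of 11 endoderm-like cells of library 1, led by Acta2, Spink1, Shh and T. The latter held Six3 at 85.5 CPM (58.8 to 120.1) and 0 UMIs of Six6, for which the interval reaches 9.56 CPM.

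The number of Six6 UMIs for each Six3 UMI is a ratio of 2 counts from the same cells and can be compared between classes. It was 1.68 (1.64 to 1.73) in optic vesicle-like cells and 1.75 (1.64 to 1.87) in surface ectoderm-like cells, with overlapping intervals. It was 1.22 (1.17 to 1.27) in ventral hypothalamus-like cells, 0.340 (0.312 to 0.370) in other forebrain-like cells and 0.363 (0.278 to 0.470) in lens placode-like cells. Optic vesicle-like cells lay between 1.17 and 1.81 over the 5 libraries, and other forebrain-like cells between 0.210 and 0.498 over 4, so that these classes were apart in every library. In surface ectoderm-like cells the ratio was 2.47, 2.24, 2.05, 1.0 and 0.25 in libraries 1 to 5, the widest spread of the named classes.

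Shares of cells were compared after every cell had been thinned to 10000 UMIs, which left out shallower cells (40 optic vesicle-like, 28 other forebrain-like, 20 ventral hypothalamus-like, 6 surface ectoderm-like, 63 crest mesenchyme-like and 0 erythroid-like cells). Six6 was detected in 81.1% of optic vesicle-like cells (78.9 to 83.1), 63.7% of surface ectoderm-like cells (58.4 to 68.8), 49.0% of ventral hypothalamus-like cells (45.0 to 53.0) and 9.97% of other forebrain-like cells (8.21 to 12.0). Six3 was detected in 74.9% (72.6 to 77.2), 58.5% (53.1 to 63.7), 70.8% (67.1 to 74.4) and 42.7% (39.7 to 45.8) of the same classes. Ventral hypothalamus-like cells thus had an overlapping range of Six6 levels over libraries, with Six6 in a smaller share of the pooled cells than the optic vesicle-like class. The share was smaller in libraries 1 to 3 (14.5%, 38.1% and 55.8%, against 69.7%, 89.7% and 76.2%). In library 4 it was larger, at 85.9% against 75.4%.

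The erythroid-like background was 1.19% for Six3 (0.245 to 3.43) and 2.77% for Six6 (1.12 to 5.62). Pooled crest mesenchyme-like cells, at 2.0% (1.35 to 2.84) and 3.20% (2.37 to 4.22), were within these intervals, which is read as background for the pooled class. Without thinning, 93.5% of optic vesicle-like cells had a UMI of Six3 and 91.1% one of Six6, against 6.32% of erythroid-like cells for either gene, at median depths of 29658 and 42576 UMIs.

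**Figure D2:**
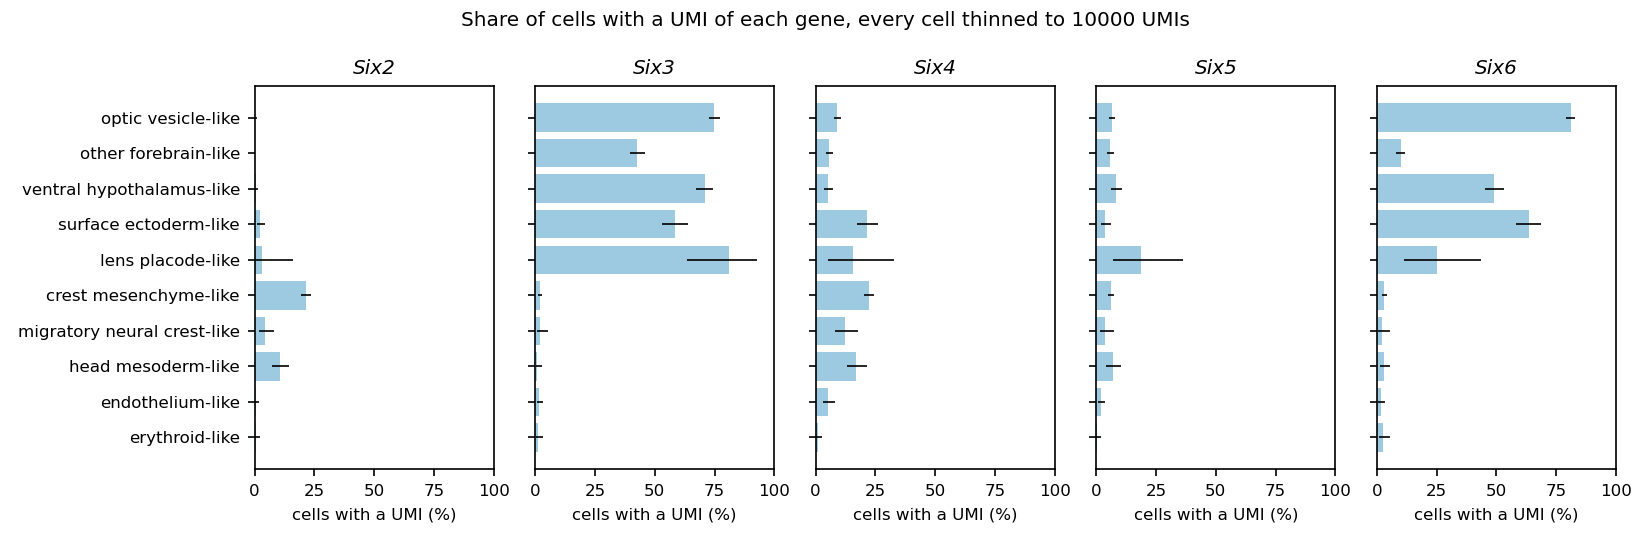
Share of cells with at least 1 UMI of each Six-family gene (panels) by cell class (rows), in percent, with every cell thinned to 10000 UMIs; bars are the cells of all libraries and lines their Clopper-Pearson 95% intervals. The Six3 and Six6 bars reach 74.9% and 81.1% in optic vesicle-like cells and stay near the erythroid-like bar from the crest mesenchyme row down.

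In the same thinned cells, 63.0% of optic vesicle-like cells (60.4 to 65.5) had both genes, 12.0% Six3 only, 18.1% Six6 only and 6.98% neither. The product of the 2 shares was 60.7%. In ventral hypothalamus-like cells both were found in 45.4% (41.4 to 49.4), above the product of 34.7%, and 25.5% had Six3 only against 3.69% with Six6 only. Other forebrain-like cells had both in 7.36% (5.84 to 9.12), against a product of 4.26%, and Six3 alone in 35.3%. Surface ectoderm-like cells had both in 42.1% (36.8 to 47.5), against 37.3%. At this depth, and over the 3 neuroepithelial classes given here, Six6 without Six3 was most frequent in the optic vesicle-like class. These shares depend on depth. Without thinning, 4.92% of optic vesicle-like cells had Six6 only, 7.27% Six3 only and 86.2% both. At 5000 UMIs, 9.47% of ventral hypothalamus-like cells had Six6 only. The shares therefore do not mark out cells that lack Six3.

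Within the optic vesicle-like class both genes varied over its 19 sub-clusters, which were made within each library and without the members. Six3 ranged from 99.3 to 318 CPM, with a median of 173, and Six6 from 22.1 to 689 CPM, with a median of 297. The sub-clusters named next were picked for their values or leading genes after both had been seen, and the ratios between them carry no test.

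The highest Six6 was in 99 cells of library 5 led by Cp, Hmx1 and Pax2, at 689 CPM with Six3 at 222 CPM. In library 4, 39 cells led by Fgf15 and Hmx1 had 634 CPM of Six6 and 318 CPM of Six3, the highest Six3 of the class. The lowest Six6, 22.1 CPM with Six3 at 104 CPM, was in 31 cells of library 4 led by Olig2, which also carried Nkx2-9 and Foxd1 among their leading genes. Leaving these cells out of the class moved its Six6 level from 304 to 311 CPM.

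Ventral hypothalamus-like cells split further. The 3 sub-clusters with Mt3 among their leading genes (258 cells) had Six3 at 374 CPM and Six6 at 587 CPM. The 2 led by Tbx3, a gene of the tuberal hypothalamus, with 142 cells, had 208 and 131 CPM. The 4 with Foxb1 among their leading genes (244 cells) had 77.1 and 26.0 CPM.

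This order held for both genes in each of the 2 libraries with all 3 kinds of cells. In library 2 the first set exceeded the last 6.53-fold for Six3 (5.61 to 7.62) and 23.9-fold for Six6 (19.5 to 29.6). In library 3 the ratio for Six3 was 6.31 (5.12 to 7.87), and Six6 fell from 516 to 1.55 CPM, the last value resting on 3 UMIs. The 63 ventral hypothalamus-like cells of library 1 were all of the third kind, and the 78 of library 4 all of the first. The low and high values of these libraries for the whole class stand beside that makeup, and its part in them was not tested.

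Other forebrain-like cells had Six3 in each of their 17 sub-clusters, from 26.0 to 137 CPM with a median of 56.3. Six6 ranged from 0 to 77.8 CPM, with a median of 14.9. The lowest Six3, 26.0 CPM with 1.0 CPM of Six6, was in 32 cells of library 1 led by Pax3, Fgf17 and Rspo1.

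**Figure D3:**
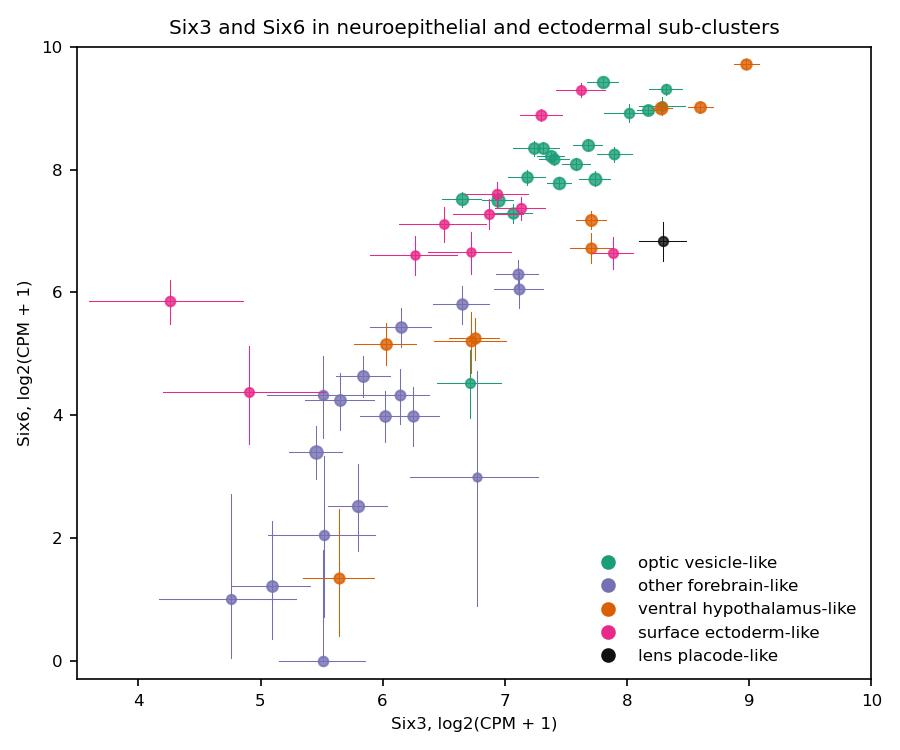
Six3 (horizontal) and Six6 (vertical) in each neuroepithelial and ectodermal sub-cluster, both as log2(CPM + 1); colours are classes, larger points hold more cells, and lines are 95% Poisson intervals. Optic vesicle-like points gather at the upper right apart from 1 with Six6 at 22.1 CPM, other forebrain-like points lie lower on both axes, and the lens placode-like point has high Six3 with lower Six6.

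Surface ectoderm-like cells had 11 sub-clusters, in which Six3 ranged from 18.1 to 235 CPM and Six6 from 19.8 to 628 CPM. Here the 2 genes parted. The highest Six6 was in 28 cells led by Fgf8 and Fgf17, at 628 CPM with Six3 at 196 CPM. The 57 cells led by the pituitary placode genes Hesx1 and Lhx3 had 474 CPM of Six6 and 156 CPM of Six3. The 30 cells led by Bmp4 and Hmx1, 20 of them from library 4, had the highest Six3, at 235 CPM, with Six6 at 99.1 CPM.

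Both genes were low in 42 cells led by Foxi2 and Irx3, at 18.1 CPM for Six3 and 57.1 CPM for Six6, and in 28 cells led by Trp63 and Wnt4, at 29.0 and 19.8 CPM. The Hesx1-led cells exceeded the Foxi2-led cells 8.62-fold for Six3 (5.47 to 14.3) and 8.30-fold for Six6 (6.42 to 10.9). The lens placode-like cells, led by Pitx3, had 2.0-fold the Six3 of the Hesx1-led cells (1.67 to 2.40) and 4.17-fold less Six6 (3.31 to 5.30). Those lens placode-like cells come from library 5 alone, which had 0 Hesx1-led cells, so that cell kind and library cannot be told apart in this last pair.

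Six2, a gene of undifferentiated mesenchyme, stood at 23.7 CPM (22.3 to 25.2) in crest mesenchyme-like cells, with 4.75, 19.4, 19.2, 24.9 and 42.0 CPM in libraries 1 to 5. In optic vesicle-like cells it stood at 0.371 CPM (0.220 to 0.587), from 18 UMIs in 1444 cells, with 0, 0, 0.273, 0.175 and 0.644 CPM. The lowest crest value lay above the highest optic vesicle-like value. Library 5 had the highest Six2 in both classes and library 1 by far the lowest crest value.

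Between optic vesicle-like and crest mesenchyme-like cells 1105 of 12460 genes passed the size rule (8.87%), and 4 of the 5 members were among them. Six3 was 73.5-fold (60.7 to 89.8) and Six6 87.1-fold (74.2 to 103) higher in optic vesicle-like cells, in 5 of 5 libraries. Six2 was 63.9-fold lower (40.2 to 108) and Six4 2.70-fold lower (2.41 to 3.04), also in 5 of 5 libraries. Six5 had a ratio of 1.14 (0.971 to 1.34). With the depleted and mixed clusters counted in the class that held most of their markers, the ratio fell to 4.85 for Six3 and 6.94 for Six6, and clustering at resolution 2 gave 55.5 for Six6. As optic vesicle-like over crest, the Six2 ratio of 0.0156 became 0.00946 without library 5, 0.0433 with those clusters counted in and 0.0461 with the members allowed in the clustering. The directions were as before and all 4 genes still passed.

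Surface ectoderm-like cells had Six2 at 2.81 CPM (1.93 to 3.97), with 1.43, 2.34, 3.6, 3.10 and 3.14 CPM in libraries 1 to 5. This was above the erythroid-like cells, with 1 UMI and 0.0919 CPM, and below every crest value. Between surface ectoderm-like and crest mesenchyme-like cells 1210 of 11648 genes passed (10.4%), with 3 members among them. Six2 was 8.43-fold lower in the ectoderm (5.93 to 12.4), and Six3 was 51.2-fold (42.1 to 62.9) and Six6 63.0-fold (53.5 to 74.7) higher. With the depleted and mixed clusters counted in, these last ratios were 3.70 and 5.48, and at resolution 2 that of Six6 was 39.9.

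Head mesoderm-like cells, which give the eye muscles and part of the skull, held Six2 at 11.8 CPM (9.50 to 14.6), with 7.96, 12.3 and 11.7 CPM in libraries 1 to 3. Crest exceeded head mesoderm 2.0-fold (1.61 to 2.52) when pooled, but not in library 1, where the crest value was 4.75 CPM. In libraries 2 and 3 crest stood higher, at no more than 19.4 CPM. The pooled crest level also includes libraries 4 and 5, with up to 42.0 CPM. Those libraries held only 14 and 15 head mesoderm-like cells, so the pooled ratio mixes class with library. Between these classes 487 of 11214 genes passed the size rule (4.34%) and 0 members did. At a finer clustering, resolution 2 in place of 1, 1 member passed, Six6, with a ratio of 3.63 at levels near the erythroid-like background. No test over samples was run for these counts, so no unadjusted p goes with the 0.

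After thinning, Six2 was detected in 21.4% of crest mesenchyme-like cells (19.3 to 23.5), 10.4% of head mesoderm-like cells (7.24 to 14.4) and 2.31% of surface ectoderm-like cells (1.0 to 4.49). In optic vesicle-like cells the share was 0.356% (0.116 to 0.829), against 0.395% in erythroid-like cells (0.0100 to 2.18), which is read as background. Among other forebrain-like cells, 0 of 1033 had a UMI after thinning, for which 3 counts of the total give a limit of 0.290% and the Clopper-Pearson interval one of 0.356%, and 7 UMIs were present in the class without thinning.

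Six4, known from placodes and muscle precursors, had nearly the same level in surface ectoderm and in both mesenchymal classes. It stood at 24.4 CPM (21.6 to 27.4) in surface ectoderm-like cells, with 16.4, 30.2, 21.0, 25.6 and 23.6 CPM in libraries 1 to 5. In crest mesenchyme-like cells it stood at 22.8 CPM (21.4 to 24.2), with 17.3, 22.3, 17.5, 15.9 and 38.5 CPM. In head mesoderm-like cells it stood at 22.1 CPM (18.8 to 25.7), with 24.6, 20.7 and 18.2 CPM in libraries 1 to 3.

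The ranges of all 3 classes overlapped. Surface ectoderm against crest gave a ratio of 1.07 (0.934 to 1.22), with either sign among the libraries, and crest against head mesoderm 1.03 (0.873 to 1.22). Lens placode-like cells had 28.1 CPM (17.2 to 43.4), which the counts cannot separate from these.

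In neuroepithelium Six4 was lower. It stood at 8.41 CPM (7.62 to 9.27) in optic vesicle-like cells, with 10.0, 9.87, 6.56, 8.07 and 9.17 CPM in libraries 1 to 5, all below every surface ectoderm-like value. The gap was 2.90-fold (2.48 to 3.38), in 5 of 5 libraries. Other forebrain-like cells had 6.69 CPM (5.83 to 7.64) and ventral hypothalamus-like cells 5.63 CPM (4.57 to 6.85). These remained above the erythroid-like level of 0.643 CPM (0.259 to 1.33).

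Shares of cells were again lower in optic vesicle-like cells than in ectoderm and mesenchyme. Six4 was detected in 22.1% of crest mesenchyme-like cells (20.0 to 24.3), 21.3% of surface ectoderm-like cells (17.1 to 26.0), 16.9% of head mesoderm-like cells (12.9 to 21.6) and 9.12% of optic vesicle-like cells (7.66 to 10.7), against 0.791% of erythroid-like cells (0.0959 to 2.83).

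**Figure D4:**
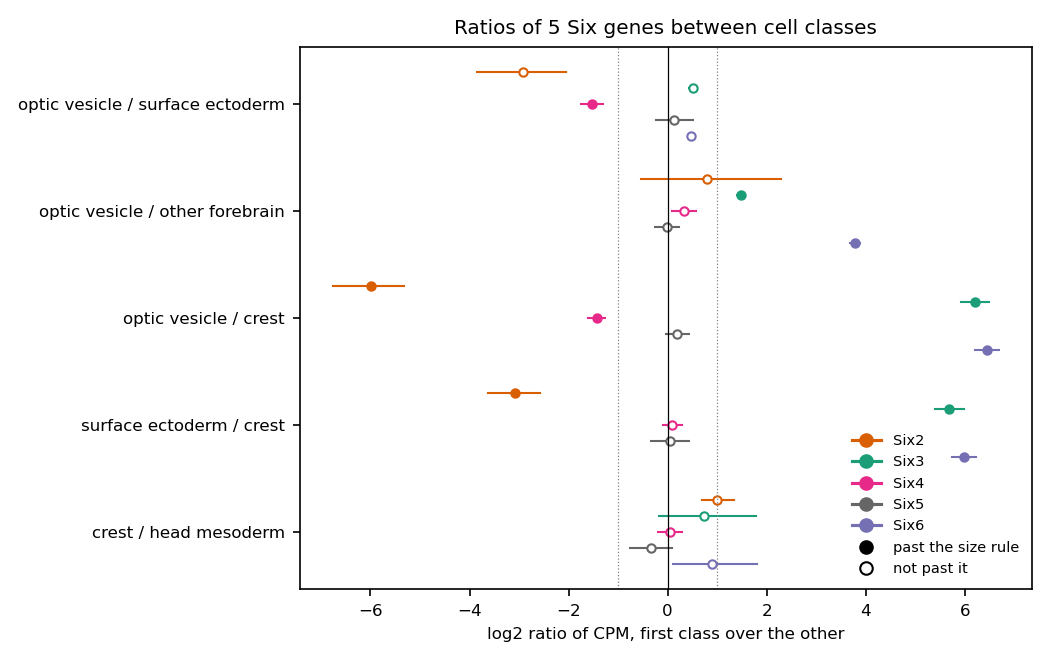
Ratio of CPM between 2 cell classes for each Six-family gene, on a log2 scale, with 95% intervals; dotted lines mark a fold of 2 in either direction, filled points passed the size rule and open points did not. Six3 and Six6 lie far right in both comparisons with crest, Six2 far left, Six4 passes only where optic vesicle-like cells are compared with ectoderm or crest, and no point is filled between crest and head mesoderm.

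In thinned crest mesenchyme-like cells 5.33% had both Six2 and Six4 (4.25 to 6.59), against a product of 4.73%, 16.1% Six2 only and 16.8% Six4 only. Thinned head mesoderm-like cells had both in 2.61% (1.13 to 5.07), against 1.77%. Without thinning, 19.7% of crest mesenchyme-like cells had both (17.7 to 21.8), against 18.4%. This share was above the product in libraries 2, 3 and 5 and below it in libraries 1 and 4. Most cells showed neither gene after thinning, so these shares cannot decide whether the 2 genes are linked cell by cell. Over the 28 crest sub-clusters Six2 ranged from 4.37 to 73.2 CPM (median 24.7) and Six4 from 7.67 to 49.6 CPM (median 21.5). The highest of both was the same sub-cluster of library 5, with 44 cells led by Sostdc1 and Msx1, at 73.2 CPM of Six2 (55.7 to 94.4) and 49.6 CPM of Six4.

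Elsewhere in library 5 the genes parted. The 66 cells led by Cxcl12 and Foxd1 had 62.0 CPM of Six2 and 33.9 CPM of Six4, whereas 53 cells led by Dkk2 had 14.2 and 45.7 CPM. The ratio between them was 4.35 (2.46 to 8.29) for Six2 and 0.740 (0.481 to 1.14) for Six4. The Cxcl12 and Foxd1-led cells also had Six3 at 8.64 CPM (12 UMIs) and Six6 at 13.7 CPM (19 UMIs), against 1.02 CPM (1 UMI) and 2.03 CPM (2 UMIs), ratios of 8.50 (1.26 to 363) and 6.73 (1.62 to 59.6), so that in this sub-cluster both lay above the erythroid-like cells of library 5 (3.71 and 2.23 CPM). A sub-cluster of 44 cells led by Crym and Cyp26b1 had Six2 at 5.58 CPM and Six4 at 23.7 CPM. These sub-clusters too were picked after their values had been seen.

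The 15 head mesoderm-like cells of library 5, led by Dkk2, had Six2 at 74.8 CPM (43.6 to 119.8), and rest on too few cells for the comparison above. The level of Six2 in crest without library 5 was 18.7 CPM and that of Six4 18.4 CPM.

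**Figure D5:**
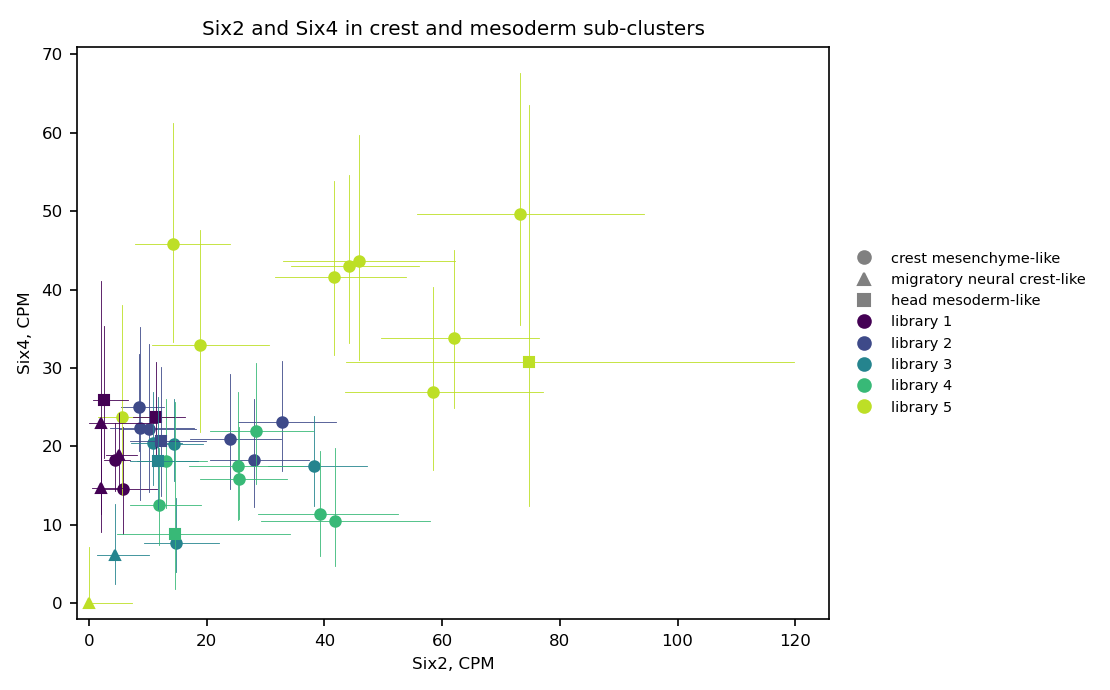
Six2 (horizontal) and Six4 (vertical) in CPM in each crest mesenchyme, migratory crest and head mesoderm sub-cluster; colours are libraries, marker shapes are classes, and lines are 95% Poisson intervals. The highest values of both genes are in sub-clusters of library 5, with Six2 at 74.8 CPM in head mesoderm-like and 73.2 CPM in crest cells, and the migratory crest sub-cluster of library 5 sits at 0 on both axes.

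Migratory neural crest-like cells had less Six2 than the crest mesenchyme, and for Six4 the libraries differed. Six2 stood at 3.71 CPM (2.40 to 5.47), with 3.93, 4.37 and 0 CPM in libraries 1, 3 and 5, the libraries that held such cells. Six4 stood at 14.7 CPM (11.9 to 17.9), with 18.1, 6.12 and 0 CPM, and was below the crest mesenchyme in libraries 3 and 5 but not in library 1, which held 130 of the 191 cells (18.1 against 17.3 CPM). The 31 cells of library 5, led by Sox10 and Ednrb, had 0 UMIs of either gene. On so few cells, the counts cannot separate these zeros from the 4.37 CPM of Six2 and 6.12 CPM of Six4 in library 3.

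Among the 37 neuron-like cells the genes split by kind of neuron. The 13 cells led by Sct, Sst, Neurod1 and Neurog1 had Six4 at 65.2 CPM (38.6 to 103), its highest value in any named class or sub-cluster described here, with Six3 at 7.24 CPM. The other 24 cells, with Neurog3 and Elavl3 in the lead, had Six3 at 172 CPM, Six6 at 182 CPM and Six4 at 7.59 CPM.

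Six5, the neighbour of Dmpk, varied little over the larger classes when their libraries were pooled. It stood at 7.13 CPM (6.40 to 7.93) in optic vesicle-like cells, with 3.76, 5.64, 7.19, 8.16 and 7.19 CPM in libraries 1 to 5. In crest mesenchyme-like cells it stood at 6.25 CPM (5.53 to 7.04), with 3.99, 4.05, 3.57, 7.73 and 10.9 CPM. These ranges overlapped, with libraries 4 and 5 above libraries 1 to 3 in crest. Other forebrain-like, ventral hypothalamus-like, surface ectoderm-like and head mesoderm-like cells lay between 6.51 and 8.47 CPM.

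The lens placode-like cells stood higher, at 19.7 CPM (10.7 to 33.0), on 14 UMIs. Endothelium-like cells (2.55 CPM), migratory neural crest-like cells (2.52 CPM) and erythroid-like cells (0.459 CPM) stood lower, and the 37 neuron-like cells had 0 UMIs of Six5. Six5 passed the size rule in 0 of the 5 comparisons, and its pooled ratios lay between 0.788 and 1.14, each with an interval that held 1. Within libraries, crest was below head mesoderm in 3 of 3, at 3.57 to 4.05 CPM against 6.22 to 11.5 CPM. Surface ectoderm was above crest in 5 of 5 libraries, and optic vesicle-like cells below other forebrain-like cells in 4 of 4. The remaining comparisons had libraries in both directions. Dmpk itself stood at 4.9 CPM in optic vesicle-like and 4.6 CPM in crest mesenchyme-like cells.

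A list of 30 measured partner and pathway genes was read in the same comparisons: the Eya coactivators, Dach cofactors, Tle corepressors and genes that the family is known to act with or on. Sox2, Pax6, Shh and Wnt8b served in part to name the cell classes, so their differences are not results about the family. Between optic vesicle-like and surface ectoderm-like cells 22 of the list could be tested, of which 2 were higher, 3 lower and 17 neither. Its median log2 ratio was -0.15, against -0.01 over all genes tested. The genes lower in optic vesicle-like cells were Eya1 (3.28 against 20.9 CPM, 6.38-fold, 5.20 to 7.85), Eya2 (10.4 against 39.1 CPM, 3.75-fold, 3.29 to 4.27) and Tle1 (28.9 against 64.4 CPM, 2.23-fold). Those higher were Dach1 (27.0 against 6.51 CPM, 4.14-fold, 3.28 to 5.31) and Pax6 (2.81-fold).

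In this comparison Eya1 and Eya2, coactivators of Six2, Six4 and Six5, were thus lower in the class where Six4 was lower. Against crest, where Six4 was lower too, this held for Eya1 only. Eya2 there stood at 10.4 against 17.5 CPM, did not pass, and was higher in optic vesicle-like cells in 3 of 5 libraries. Eya1 stood at 23.1 CPM in crest mesenchyme-like and 26.6 CPM in head mesoderm-like cells. Between optic vesicle-like and crest mesenchyme-like cells 23 of the list were tested, of which 6 were higher (Dach2, Aes, Bmp4, Sox2, Pax6 and Sall1), 1 lower (Eya1, 7.05-fold, 5.96 to 8.39) and 16 neither, with a median of 0.27 against -0.01. Aes, a short Groucho-family protein, was 5.69-fold higher (60.2 against 10.6 CPM).

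Between optic vesicle-like and other forebrain-like cells 23 were tested, of which 1 was higher (Bmp4), 1 lower (Wnt8b) and 21 neither, with a median of -0.03 against 0.03. Wnt8b, which Six3 is known to repress in the forebrain, stood at 2.41 CPM in optic vesicle-like and 49.1 CPM in other forebrain-like cells. Between surface ectoderm-like and crest mesenchyme-like cells 22 were tested, of which 4 were higher (Aes, Sox2, Pax6 and Sall1), 0 lower and 18 neither, with a median of 0.22 against -0.01. Between crest and head mesoderm 22 were tested, of which 0 were higher, 2 lower in crest (Osr1, 16.9-fold, and Sall1, 3.88-fold) and 20 neither, with a median of -0.23 against -0.05. The median ratios of the list are descriptions of chosen genes and carry no test.

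The genes most like each member were found over 40 profiles, each 1 class in 1 library with at least 20 cells, by Pearson's r of log2(CPM + 5) among 6384 genes that have an entry in the RefSeq promoter table. The profiles share 5 libraries, and r is a description without a p. The gene most like Six3 was Six6 (r = 0.944), followed by Dpysl5 (0.929), Lrp2 (0.929), Uchl1 (0.920) and Plch1 (0.915). After Six3, those most like Six6 were Lrp2 (0.882), Ccdc92 (0.860), Pbx4 (0.857) and Fzd5 (0.853).

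Six2 was most like Dpep1 (0.919), Pdgfra (0.906), Ddr2 (0.896), S1pr3 (0.891) and Col3a1 (0.888), of which Pdgfra and Col3a1 had served to name mesenchyme. Six4 was most like Ror2 (0.865), Tpd52l1 (0.861), Spin2c (0.860), Fat1 (0.856) and Ntf3 (0.848). Six2 and Six4 had r = 0.684 with each other. Six5 stayed under the 20 CPM asked for in every profile and was given no such list.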

How the data were processed

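The members and gene lists were chosen with earlier results of these data known. The deposited matrix holds raw UMI counts from the authors, whole numbers per gene and barcode. Cell Ranger and the build mm10 (GRCm38) are named, per the submitters' processing notes; for the version, cell calling, strand setting and depth equalising, the answer is not given in the sources used here. Barcodes needed 1000 detected genes and a mitochondrial share of 10% or less (22 of 8194 were left out). Scrublet, through scanpy 1.11.5, removed 66 doublets at an expected rate of 6% (0.403% to 1.46% per library, below the expected rate in each). Cells were scaled to 10000 UMIs and clustered from 2000 variable genes (30 components, 15 neighbours, Leiden resolution 1, igraph 0.11.9), without the members, the partner list, or sex-linked, haemoglobin, mitochondrial and ribosomal genes, and without integrating libraries. Classes needed at least 3 markers, each with at least 10 UMIs and a 2-fold excess over other cells. The optic vesicle-like class needed 4 of 10, and other forebrain-like cells drew theirs from the telencephalon and diencephalon lists together. Neuroepithelium and mesenchyme were clustered again within each library, and ectoderm jointly. UMIs were then summed per class and library, and intervals came from scipy 1.17.1. The summing and the size rule were tested on simulated counts. All 5 members are named, and partner genes only where they passed the size rule or help to describe a member. Alternatives covered doublets, resolution, clustering genes, library weights, CPM denominator, low-quality clusters, pseudocount, fold, thinning and each library left out.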

Additional observations from a re-analysis of the deposited data

How the results depend on the processing

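The size rule was repeated under each alternative. The number of members that passed stayed within 1.5 times the reported number in 77 of 80 cases. With a fold of 4 in place of 2, the members that passed were 0 between optic vesicle and surface ectoderm and 1 (Six6) between optic vesicle and other forebrain. With Leiden resolution 2, 1 (Six6) passed between crest and head mesoderm. Of single ratios, 375 kept their direction and their side of the rule, 3 (Six4 against ectoderm, Six3 against forebrain, Six4 against crest) missed the fold of 4, and 0 reversed. Leaving out any 1 library changed no number of members that passed. Of the levels, 274 moved within their counting interval and 76 beyond it, most often with ribosomal, mitochondrial and haemoglobin genes left out of the total (Six6 in optic vesicle-like cells, 465 in place of 304 CPM). Leaving out shared barcode sequences, counting lens placode-like cells as surface ectoderm-like, and leaving out the Olig2-led cells were chosen after seeing the data and changed no number of members that passed.

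Depth limits Six2 outside mesenchyme and Six5 everywhere, and the shares of cells, of which 31 of 32 moved beyond their interval without thinning or at 5000 UMIs. The classes share libraries, but no paired test was run, because the libraries are single samples of unassigned stages and not replicates of a group. Directions within libraries are given instead.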

Other observations

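The 775 cells depleted of nuclear RNA had Six6 at 97.0 CPM (91.5 to 103) and Six3 at 33.7 CPM (30.5 to 37.2). This is 2.88 Six6 UMIs for each Six3 UMI (2.56 to 3.23), against 1.68 in optic vesicle-like cells, and the values in libraries 1 to 5 were 1.2, 2.67, 3.57, 6.25 and 3.79. In each of libraries 1 to 5 the value was above that of the optic vesicle-like cells, which was 1.17, 1.64, 1.62, 1.58 and 1.81, although the intervals overlapped in library 1 (0.960 to 1.49 against 1.0 to 1.36). The same cells held Six4 at 3.45 CPM and Six5 at 3.53 CPM, and these cells come from several classes in shares that were not measured.

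A sub-cluster of 30 unnamed neuroepithelial cells in library 1, led by Fgf8 and Fgf17, had Six3 at 223 CPM (192 to 257) and Six6 at 396 CPM (354 to 440.3), both above the optic vesicle-like cells of that library (133 and 155 CPM). In surface ectoderm, the cells led by the same 2 Fgf genes were also those with the highest Six6. Both were noticed after the values had been seen.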
